A study of Homo sapiens with 42 samples.

Results

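In NOMO1 cells held on the menin inhibitor VTP-50469, selumetinib changed a large set of genes on both days, but for 624 of 16570 genes tested the size or the direction of that change differed between day 6 and day 3. Genes of DNA replication (11 of 36), S100A8, S100A9, S100A12, 3 metallothionein genes and the glucose transporter gene SLC2A1 were held down by selumetinib in proportion more at day 3 than at day 6. TXNIP, ARRDC4, CSF1R and CYP27A1 were raised by a larger ratio at day 3 than at day 6, though by more CPM (library-scaled reads) at day 6. CCL24, THBD and 3 of 12 MHC class II genes showed the larger effect at day 6 as a ratio. Among these, HLA-DRA had the smaller gap in CPM at day 6. SASH1 was lower in the combination at day 6 and higher at day 3. The quantity followed is, for each gene, the effect of adding selumetinib at day 6 (combination over VTP-50469 alone) minus the same effect at day 3, on the log2 scale; it is called the change over days below. A positive value means that the combination stood higher relative to VTP-50469 alone at day 6 than it did at day 3. It compares ratios: taken as a difference of group mean CPM in place of a ratio, it had the other sign for 12 of the 95 called genes chosen for naming, and those described say so. It uses 12 of the 42 libraries of the series, 3 in each of 4 groups, and covers 16570 of the 58870 genes in the count table, those with enough reads to test.

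Menin is the adaptor that holds KMT2A (MLL) complexes at their target genes, among them the HOXA genes and MEIS1, and its inhibition in KMT2A-rearranged leukaemia lowers these genes and lets the cells differentiate along the myeloid line. MEK is the kinase that activates ERK, whose feedback inhibitors (DUSP and SPRY genes) and ETS factors (ETV4, ETV5) are the classical transcriptional readout of the pathway. ERK also feeds growth through MYC and influences the monocytic programme of myeloid cells.

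NOMO1 is an established human acute myeloid leukaemia line of monocytic type that carries a KMT2A rearrangement. The groups followed were the combination of 100 nM VTP-50469 with 100 nM selumetinib, a MEK inhibitor, at day 6 and at day 3. Each was set against 100 nM VTP-50469 alone of the same day, so that every library compared had received the menin inhibitor. Titles of the samples and the study's description give different numbers for the menin inhibitor, and the description's VTP-50469 is used here. For selumetinib alone the labels conflict between 1 day and day 3, and its length in the combination is not given at either time, so the day and the length of exposure to selumetinib cannot be told apart. Polyadenylated RNA was sequenced without strand information. No label ties replicates to separate cultures, so p-values measure the spread between these libraries, which may be technical. In bulk RNA, fewer cells of a type and less RNA per cell cannot be told apart.

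The 12 libraries held 19440618 to 28157452 assigned reads and 19316 to 22760 genes with at least 1 read. Myeloid markers were in place, with 11 of 12 at 5 CPM (reads of a gene scaled by the size of its library) or more in each of the 4 groups and MPO the highest. One library stood apart: VTP-50469 day 3 replicate 1 differed from its partners by a mean chi-square per gene of 67.6 and 73.0, against 3.67 to 11.96 in the other 10 pairs of replicates. In it 387 of 10365 genes lay over 2-fold from the mean of its partners. Amino acid stress genes (median log2 difference 1.11) and chemokine genes (1.18) were higher in it. So were immediate early and other ERK output genes (0.71), monocyte and macrophage genes (0.66) and MEK signature genes (0.59). Mitosis genes (-0.58), eosinophil and basophil granule genes (-0.55) and heat shock and chaperone genes (-0.54) were lower. List counts are therefore also given without it. Calls for the change over days rose over all genes tested too, from 334 to 840 higher and from 290 to 914 lower. List counts without this library are to be read beside that general rise. Mitochondrially encoded transcripts took 3.06% to 4.001% of reads in the combination at day 6 and 3.14% to 3.88% with VTP-50469 alone at day 6. They took 5.597% to 6.73% in the combination at day 3 and 4.11% to 4.83% with VTP-50469 alone at day 3.

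At an adjusted p under 0.05 (edgeR quasi-likelihood test, Benjamini-Hochberg over all genes tested), 334 genes were called higher for the change over days (2.02% of those tested) and 290 lower (1.75%). At least a 2-fold change was seen in 83 of the higher and 67 of the lower. The split depended on the scaling, with 268 higher and 338 lower under relative log expression factors and 244 higher and 366 lower under library totals. Without VTP-50469 day 3 replicate 1 the counts were 840 and 914, and 601 of the 624 genes were still called. The effect of adding selumetinib was itself called for 2085 genes upward (12.6%) and 2489 downward (15%) at day 6, and for 2529 upward (15.3%) and 3333 downward (20.1%) at day 3. These 2 sets shared 1379 genes called higher on both days, which is 66.1% of the day 6 set and 54.5% of the day 3 set, and 1812 called lower on both days, 72.8% and 54.4% of the sets.

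Among the 624 genes the effect was more often smaller at day 6. Of these, 317 were called at day 3 alone, 114 were called on both days in the same direction with the smaller effect at day 6, 115 were called at day 6 alone, 30 were called on both days with the larger effect at day 6, 46 were called in opposite directions and 2 on neither day. By size, 458 of 624 (73.4%) had the smaller absolute effect at day 6, and their median absolute effect over all 624 was 0.28 at day 6 and 0.62 at day 3, beside 0.31 and 0.36 over all genes tested. The commonest pattern, in 192 genes, was a fall at day 3 (median log2 effect -0.68) with no call at day 6 (median 0.05). Its mirror image, a rise at day 3 (0.59) with no call at day 6 (-0.01), was seen in 125 genes. In 390 of the 624 (62.5%) the level with VTP-50469 alone moved further between the days than the level in the combination did. The shares of 73.4% and 62.5% were not computed over all genes tested, so they are not set apart from the background. The 62.5% was also not computed without VTP-50469 day 3 replicate 1. Without VTP-50469 day 3 replicate 1 the classes held 711, 444, 348, 105, 127 and 19 genes, in the order just given for day 3 alone, smaller at day 6, day 6 alone, larger at day 6, opposite and neither.

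**Figure D1:**
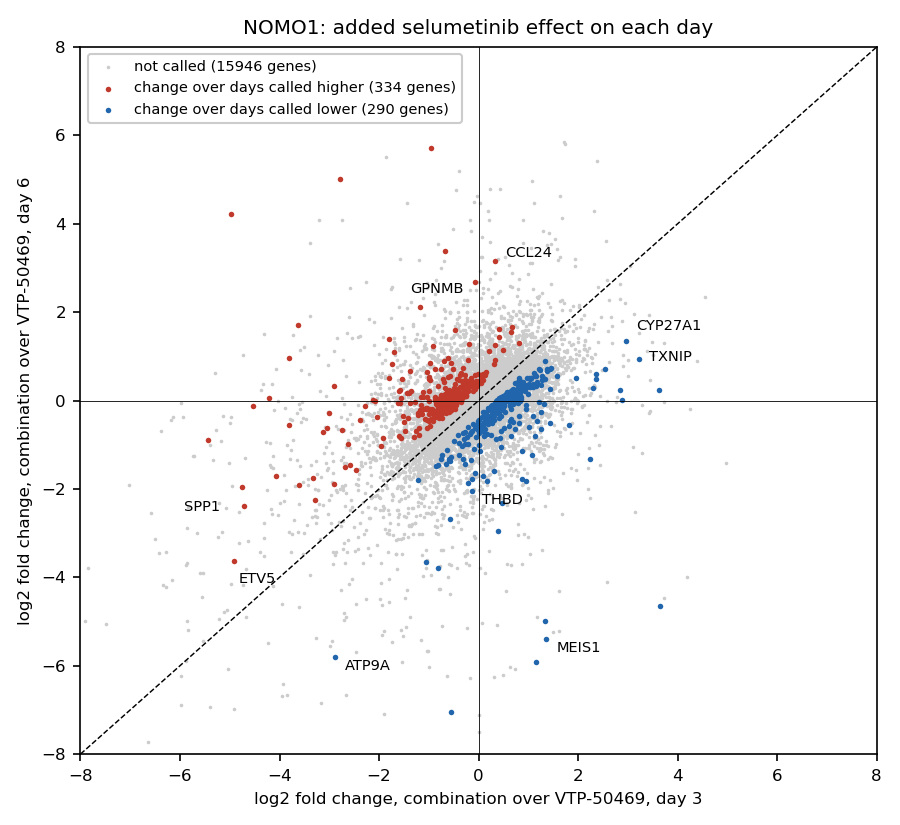
Log2 effect of adding selumetinib to VTP-50469 in NOMO1 at day 6 (vertical) against day 3 (horizontal), 1 point per gene tested, 3 libraries a group. Points on the dashed line have the same effect on both days. Red points (334 genes) are called higher and blue points (290 genes) lower for the change over days, and most lie nearer to 0 on the day 6 axis than on the day 3 axis. MEIS1 is placed by a fitted value that depends on the prior count, since its combination libraries of day 6 held no reads, and 4 genes outside the range of -8 to 8 are not drawn.

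The direct outputs of ERK were still held down at both times. Of 9 MEK signature genes tested, 8 were called lower at day 6 (median log2 effect -2.77) and 9 at day 3 (-4.16), and 1, ETV5, was called for the change over days, against 2 without VTP-50469 day 3 replicate 1. ETV5 encodes an ETS factor induced by ERK. At day 6 ETV5 lay at 13.3, 14.8 and 13.2 CPM in the combination, against 162, 174 and 179 CPM with VTP-50469 alone. At day 3 ETV5 lay at 2.05, 2.22 and 2.29 CPM in the combination, against 92.9, 55.3 and 52.2 CPM with VTP-50469 alone. The combination lay below VTP-50469 alone in every library on both days, with no overlap, and the effect was -3.64 at day 6 and -4.92 at day 3, a change of 1.29 ± 0.25, adjusted p = 0.00543 (log2 ± SE, edgeR). Without VTP-50469 day 3 replicate 1, which had the highest ETV5 level of its group, the change was 0.96. In CPM the gap was wider at day 6, a difference of -93.5 CPM between the days. DUSP6, the phosphatase that switches off ERK, had effects of -2.64 at day 6 and -3.35 at day 3 and did not pass the test for a change over days (0.71 ± 0.21, adjusted p = 0.0596, edgeR). The feedback inhibitor SPRY4 had effects of -4.95 at day 6 and -5.22 at day 3, with a change of 0.27 ± 0.55 that also did not pass. EGR1, an immediate early factor, showed -4.45 at day 6 and -5.55 at day 3.

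In the wider list of 33 immediate early and other ERK output genes, 12 were called lower at day 6 and 20 at day 3, and DUSP2 and MYC were called for the change over days, in opposite directions, with a median of 0.52. Without VTP-50469 day 3 replicate 1 the list had 2 called higher and 5 lower and a median of 0.24. DUSP2, a nuclear ERK phosphatase, lay at 7.94, 8.36 and 10.2 CPM in the combination at day 6, against 8.50, 8.34 and 8.63 CPM with VTP-50469 alone. At day 3 it lay at 7.61, 8.71 and 8.54 CPM in the combination, against 31.1, 20.4 and 21.5 CPM. The combination libraries of the 2 days overlapped, and the gap of day 3 came with a higher level under VTP-50469 alone (change 1.60 ± 0.25, adjusted p = 4.31e-04, edgeR). MYC, the growth-promoting transcription factor, went the other way. At day 6 MYC lay at 59.3, 59.8 and 54.1 CPM in the combination, against 169, 157 and 158 CPM with VTP-50469 alone. At day 3 MYC lay at 171, 184 and 173 CPM in the combination, against 297, 315 and 337 CPM with VTP-50469 alone. None of these groups overlapped within a day, and the log2 fall with selumetinib was deeper at day 6 (-1.48) than at day 3 (-0.85), while the gap in CPM was narrower at day 6 by 37.3 CPM. The change was -0.63 ± 0.09, adjusted p = 2.11e-04 (edgeR). None of the 29 genes that encode RAS, RAF, MEK and ERK pathway proteins was called for the change over days (median -0.04, against 0.01 over all genes tested), though without VTP-50469 day 3 replicate 1 edgeR called 4 of them lower. NRAS was among those not called, at -0.07 ± 0.11.

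The monocytic programme held genes called higher and genes called lower for the change over days. The 2 signs do not mean that effects grew in one set and shrank in the other. CD14, S100A8 and S100A9 were lowered and CSF1R was raised by the combination on both days, each by a smaller ratio at day 6. Of 35 monocyte and macrophage genes tested, 3 (CD14, S100A8 and S100A9) were called higher for the change over days and 7 (CSF1R, CD163, MARCO, LYZ, TLR2, CX3CR1 and IRF8) lower, with a median of -0.18. Without VTP-50469 day 3 replicate 1 the counts were 4 and 16 and the median -0.47. CSF1R (chr5:150053291-150113372, hg38) is the receptor for the macrophage growth factor. At day 6 CSF1R lay at 351, 432 and 457 CPM in the combination, against 256, 263 and 295 CPM with VTP-50469 alone. At day 3 CSF1R lay at 107, 109 and 105 CPM in the combination, against 24.2, 18.1 and 20.1 CPM with VTP-50469 alone. The combination was above VTP-50469 alone in every library of both days. Its excess narrowed at day 6, to 0.61 on the log2 scale against 2.37 at day 3 (change -1.76 ± 0.14, adjusted p = 1.36e-08, edgeR), and in proportion the level under VTP-50469 alone differed more between the days than that in the combination. In CPM the excess was larger at day 6, by 55.7 CPM. Cells with DMSO averaged 14.3 ± 2.17 CPM at day 6 and 8.99 ± 0.514 CPM at day 3 (SD, n = 3 each).

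Several other macrophage genes had the same form, raised by the combination at day 3 and less so, or not, at day 6. LYZ, which encodes lysozyme, averaged 4119 ± 77.6 CPM in the combination and 2498 ± 191 CPM with VTP-50469 alone at day 6, and 4637 ± 48.7 and 1717 ± 365 CPM at day 3 (SD, n = 3 each). Its change was -0.71 ± 0.13, adjusted p = 0.00248 (edgeR). MARCO, a scavenger receptor, had effects of -0.25 at day 6 and 1.26 at day 3, and CX3CR1, the fractalkine receptor, -0.11 at day 6 and 0.96 at day 3. CD163, the haemoglobin scavenger receptor, had a change of -2.37, and its call held in 2 of the 12 fits that each leave out 1 library. CYP27A1, a sterol hydroxylase of macrophages and liver that is outside the list, showed the pattern with larger values. At day 6 CYP27A1 lay at 154, 165 and 188 CPM in the combination, against 58.8, 71.2 and 69.6 CPM with VTP-50469 alone. At day 3 CYP27A1 lay at 38.8, 41.4 and 38.2 CPM in the combination, against 5.27, 4.52 and 5.45 CPM with VTP-50469 alone. The groups did not overlap, and the excess in CPM was larger at day 6, by 67.9 CPM. The log2 effect was 1.34 at day 6 and 2.96 at day 3 (change -1.61 ± 0.18, adjusted p = 3.81e-06, edgeR).

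CD14, S100A8, S100A9 and S100A12 were lower in the combination on both days, in proportion more so at day 3. Over all 13 S100 genes tested, a family counted after values were seen, 3 were called higher for the change over days and 1 lower. CD14, the lipopolysaccharide co-receptor of monocytes, was low in every library of day 3. At day 6 CD14 lay at 54.2, 74.3 and 80.4 CPM in the combination, against 247, 264 and 276 CPM with VTP-50469 alone. At day 3 CD14 lay at 0.513, 0.490 and 0.155 CPM in the combination, against 5.17, 4.48 and 4.51 CPM with VTP-50469 alone. The combination was below VTP-50469 alone without overlap on both days, with effects of -1.91 at day 6 and -3.60 at day 3 (change 1.69 ± 0.32, adjusted p = 0.00259, edgeR). In CPM the CD14 gap was wider at day 6, a difference of -188 CPM. S100A8 and S100A9 form calprotectin, the abundant calcium-binding protein of monocytes and neutrophils. At day 6 S100A8 lay at 996, 969 and 826 CPM in the combination, against 2572, 2786 and 2369 CPM with VTP-50469 alone. At day 3 S100A8 lay at 779, 796 and 740.4 CPM in the combination, against 5214, 4294 and 4313 CPM with VTP-50469 alone. S100A8 thus lay below VTP-50469 alone in every library on each day, and the change was 1.11 ± 0.13, adjusted p = 7.38e-06 (edgeR). With DMSO it averaged 1314 ± 96.1 CPM at day 6 and 4465 ± 365 CPM at day 3 (SD, n = 3 each). The DMSO libraries of day 3 had 17.6% to 18.0% mitochondrially encoded reads, against 2.73% to 3.68% at day 6. The part of this in the DMSO difference between the days was not tested. S100A9 had a change of 0.87 ± 0.12 and S100A12, a further member of the family, 1.17 ± 0.13, and none of these calls was lost when any 1 library was left out. ITGAM, the CD11b chain, was not called (-0.24 ± 0.17, adjusted p = 0.525, edgeR), but was -0.52 with an adjusted p of 1.11e-05 without VTP-50469 day 3 replicate 1, which had 763 CPM against 493 and 459 CPM in its partners.

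Of 22 myeloid transcription factor genes, 3 were called higher and 2 lower, against 4 and 5 without VTP-50469 day 3 replicate 1. CEBPE, a factor of granule formation, and CEBPD, a stress-responsive family member, had changes of 0.70 ± 0.15 and 0.68 ± 0.15, and without VTP-50469 day 3 replicate 1 that of CEBPE was 0.46. ID3, an inhibitor of helix-loop-helix factors, changed by 2.58 ± 0.43, adjusted p = 8.36e-04 (edgeR), with levels of 10.2, 9.29 and 9.62 CPM in the combination at day 6, against 3.39, 5.67 and 7.35 CPM, and 1.62, 2.30 and 2.33 CPM at day 3, against 12.3, 4.06 and 4.85 CPM. The ID3 change was 1.91 without VTP-50469 day 3 replicate 1, the highest of its group. IRF8, a factor of the monocyte and dendritic lineage, was lower in the combination at day 6 and higher at day 3. At day 6 IRF8 lay at 112, 127 and 114 CPM in the combination, against 134, 146 and 143 CPM with VTP-50469 alone. At day 3 IRF8 lay at 118, 122 and 117 CPM in the combination, against 78.3, 84.6 and 84.4 CPM with VTP-50469 alone. Neither day had overlapping groups, and the change was -0.79 ± 0.10, adjusted p = 9.78e-06 (edgeR). Of 27 neutrophil and granule genes tested, 3 (CAMP, S100A12 and CEBPE) were called higher and 0 lower, where edgeR without VTP-50469 day 3 replicate 1 gave 7 higher and 1 lower. The call of CAMP held in 2 of the 12 fits that leave out a library, and not without that replicate (adjusted p = 0.0617, edgeR). None of 12 eosinophil and basophil granule genes was called, against 2 higher without that library.

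**Figure D2:**
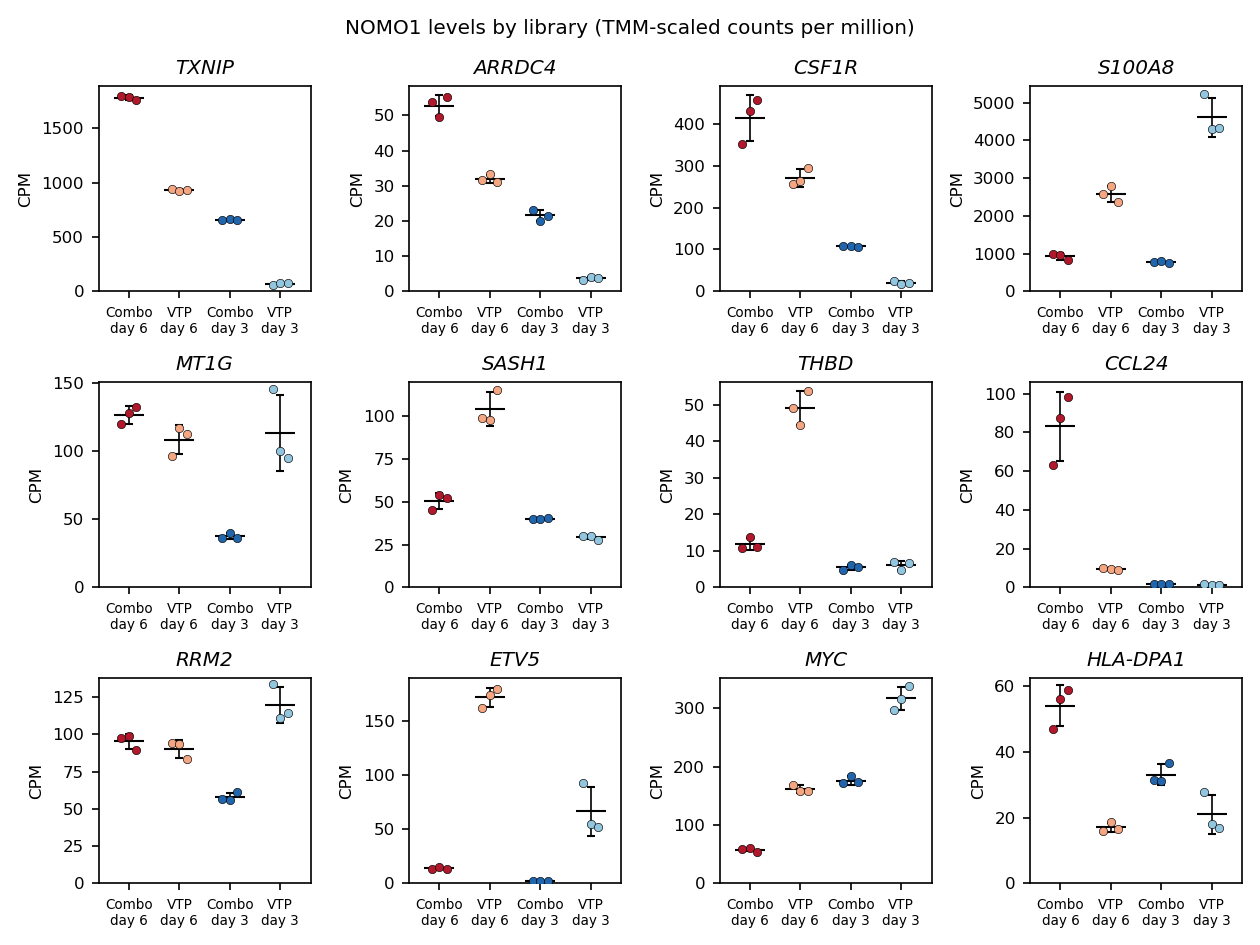
TMM-scaled CPM in each of the 12 NOMO1 libraries for 12 genes (3 points a group, bar at the mean, error bar 1 SD, linear axis from 0). Combo is the combination and VTP is VTP-50469 alone. TXNIP, ARRDC4 and CSF1R stand above VTP-50469 alone on both days with a wider ratio at day 3, S100A8, ETV5 and MYC stand below it on both days, and SASH1 lies below it at day 6 and above it at day 3.

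TXNIP had the smallest adjusted p among the genes named. It encodes an arrestin-related protein that restrains glucose uptake, and with its relative ARRDC4 it is a textbook target of the glucose-sensing factors MondoA and ChREBP. At day 6 TXNIP lay at 1795, 1788 and 1757 CPM in the combination, against 939, 923 and 928 CPM with VTP-50469 alone. At day 3 TXNIP lay at 652, 668 and 651 CPM in the combination, against 61.4, 74.9 and 75.3 CPM with VTP-50469 alone. The libraries of each group lay close together and no groups overlapped. In CPM the excess of the combination was larger at day 6, by 263 CPM. On the log2 scale the combination stood above VTP-50469 alone by 0.94 at day 6 and 3.22 at day 3, a change of -2.28 ± 0.15, adjusted p = 6.04e-10 (edgeR). Cells with DMSO averaged 144 ± 8.54 CPM at day 6 and 103 ± 6.31 CPM at day 3, and cells with selumetinib alone 303 ± 65.2 CPM (SD, n = 3 each). At day 6 ARRDC4 lay at 53.8, 49.5 and 55.1 CPM in the combination, against 31.7, 33.3 and 31.01 CPM with VTP-50469 alone. At day 3 ARRDC4 lay at 23.2, 20.1 and 21.5 CPM in the combination, against 3.21, 4.14 and 3.78 CPM with VTP-50469 alone. ARRDC4 thus had the same order of groups at a much lower level and an excess 2.95 CPM larger at day 6, with effects of 0.72 at day 6 and 2.53 at day 3 and a change of -1.81 ± 0.23, adjusted p = 2.54e-05 (edgeR).

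The start regions of these co-varying genes are shown because both are known to be read by carbohydrate response factors. TXNIP lies on chromosome 1 (chr1:145992435-145996600, minus strand, hg38) and ARRDC4 on chromosome 15 (chr15:97960698-97973838, plus strand). The RefSeq promoter windows (GRCh38.p14, 250 bases before to 50 after the start, read 5′ to 3′) are chr1:145996530-145996829 on the minus strand and chr15:97960453-97960752 on the plus strand, and capitals mark matches to CACGNG on either strand.
TXNIP: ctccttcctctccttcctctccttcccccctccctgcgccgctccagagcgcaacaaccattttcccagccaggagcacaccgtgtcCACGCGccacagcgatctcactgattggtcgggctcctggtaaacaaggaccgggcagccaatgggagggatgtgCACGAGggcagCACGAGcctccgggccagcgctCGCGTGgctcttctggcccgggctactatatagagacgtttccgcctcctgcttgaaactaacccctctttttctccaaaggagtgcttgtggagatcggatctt
ARRDC4: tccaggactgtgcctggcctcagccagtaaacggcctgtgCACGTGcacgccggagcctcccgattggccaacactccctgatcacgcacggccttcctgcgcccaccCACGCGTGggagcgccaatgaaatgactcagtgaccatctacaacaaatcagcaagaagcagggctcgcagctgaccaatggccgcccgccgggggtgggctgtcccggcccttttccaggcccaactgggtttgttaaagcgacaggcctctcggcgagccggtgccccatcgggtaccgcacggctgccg
The windows hold 4 and 3 matches, some of them overlapping. This short motif, chosen after the values were seen, was in 43.4% of 265 promoters of genes called higher, 41.5% of 207 of genes called lower, 41.3% of 10901 of all genes tested and 30.4% of 27305 in the table, so its presence is common. The E-box CACGTG, which it includes, was in 9.43%, 14.5%, 10.1% and 7.43% of these promoters. Of the other motifs searched on both strands, ETS (CCGGAAGT) was in 5.28% of promoters of genes called higher, 9.66% of those called lower and 8.51% of those tested. AP-1 (TGACTCA) was in 3.02%, 3.38% and 3.32%, and CRE (TGACGTCA) in 3.77%, 2.9% and 3.02%.

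Of 28 glucose uptake and glycolysis genes, SLC2A1 and SLC16A3 were called higher and TXNIP and ARRDC4 lower (median 0.29; 2 and 2 also without VTP-50469 day 3 replicate 1, median 0.16), and 18 of the 28 were called lower in the combination at day 3 but 8 at day 6. SLC2A1, the glucose transporter GLUT1, moved opposite to TXNIP. At day 6 SLC2A1 lay at 14.5, 18.5 and 14.2 CPM in the combination, against 18.98, 14.5 and 18.1 CPM with VTP-50469 alone. At day 3 SLC2A1 lay at 8.08, 8.03 and 8.19 CPM in the combination, against 46.5, 49.98 and 21.7 CPM with VTP-50469 alone. The day 6 groups overlapped, and the day 3 groups did not. Its effect was -0.12 at day 6 and -2.28 at day 3 (change 2.16 ± 0.41, adjusted p = 0.00676, edgeR). SLC16A3, the lactate exporter MCT4, had a change of 0.38 ± 0.11 and kept its call in 2 of the 12 fits that leave out a library.

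Metallothionein genes encode small cysteine-rich proteins that bind zinc and copper. Of the 7 tested, a family counted after values were seen, 7 were called lower in the combination at day 3 and 0 at day 6, and 6 were called higher for the change over days and 0 lower. MT1G, MT1H and MT1X were among the 15 largest rises. They lie together on chromosome 16 (MT1G at chr16:56666731-56668065, MT1H at chr16:56669814-56671129 and MT1X at chr16:56682424-56684196, hg38) and are near-identical copies, so reads may be divided between them. At day 6 MT1G lay at 119, 128 and 132 CPM in the combination, against 95.95, 116 and 112 CPM with VTP-50469 alone. At day 3 MT1G lay at 36.05, 39.8 and 35.97 CPM in the combination, against 145, 99.7 and 94.7 CPM with VTP-50469 alone. At day 3 the combination lay below VTP-50469 alone without overlap. Cells with selumetinib alone averaged 51.8 ± 8.97 CPM (SD, n = 3). Cells with DMSO averaged 104 ± 4.29 CPM at day 6 and 378 ± 11.3 CPM at day 3 (SD, n = 3 each). The DMSO libraries of day 3 had 17.6% to 18.0% mitochondrially encoded reads, and the part of this in that difference was not tested. At day 6 the effect was 0.22 and was not called. The changes were 1.82 ± 0.18, adjusted p = 3.81e-06 for MT1G, 1.80 ± 0.33, adjusted p = 0.00545 for MT1H and 1.57 ± 0.27, adjusted p = 0.00165 for MT1X (edgeR), and 1.59, 1.39 and 1.34 without VTP-50469 day 3 replicate 1, the highest library of its group for each.

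Promoter windows of MT1H and MT1X show the metal response element core, TGCGCNC, the site of the zinc-sensing factor MTF1, in capitals on either strand. No window was available for MT1G. MT1H is chr16:56669564-56669863 and MT1X chr16:56682220-56682519, both on the plus strand of GRCh38.p14 from RefSeq.
MT1H: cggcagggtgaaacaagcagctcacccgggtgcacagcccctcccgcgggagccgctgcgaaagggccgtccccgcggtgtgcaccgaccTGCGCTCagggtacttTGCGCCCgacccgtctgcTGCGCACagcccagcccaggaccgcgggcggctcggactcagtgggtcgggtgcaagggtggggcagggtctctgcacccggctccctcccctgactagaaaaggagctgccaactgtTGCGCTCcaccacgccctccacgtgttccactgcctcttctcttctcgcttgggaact
MT1X: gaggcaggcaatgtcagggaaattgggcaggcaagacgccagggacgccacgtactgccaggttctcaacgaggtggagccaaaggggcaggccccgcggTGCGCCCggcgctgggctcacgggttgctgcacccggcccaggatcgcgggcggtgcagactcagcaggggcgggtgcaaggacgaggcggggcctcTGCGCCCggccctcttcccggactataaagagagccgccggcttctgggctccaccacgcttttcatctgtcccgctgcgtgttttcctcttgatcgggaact
MT1H holds 4 matches and MT1X holds 2. The motif, also chosen after the values were seen, was in 35.8% of promoters of genes called higher, 26.6% of those called lower, 30% of those tested and 20% of all. A match is a string of letters in this window and does not show that the factor bound there.

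The hold of selumetinib on growth genes was weaker at day 6 for part of them. Of 36 DNA replication genes, 11 were called higher for the change over days and 0 lower (2.02% and 1.75% of all genes tested), with a median change of 0.41 against 0.01 over all genes tested. In the combination 29 of them were called lower at day 3 (median -0.67) and 12 at day 6 (-0.20). RRM2, a subunit of the enzyme that makes deoxynucleotides, shows it. At day 6 RRM2 lay at 97.8, 99.02 and 89.5 CPM in the combination, against 94.2, 93.5 and 83.4 CPM with VTP-50469 alone. At day 3 RRM2 lay at 56.8, 56.2 and 61.3 CPM in the combination, against 134, 111 and 114 CPM with VTP-50469 alone. The day 3 groups did not overlap and the day 6 groups did, with a change of 1.12 ± 0.13, adjusted p = 6.56e-06 (edgeR). The flap nuclease FEN1 changed by 0.59 ± 0.12 and CDC45 of the replicative helicase by 0.84 ± 0.17. The clamp PCNA changed by 0.56 and the clamp loader subunit RFC3 by 0.85.

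Of 30 mitosis genes, 5 (CDK1, CCNA2, AURKB, KIF11 and TTK) were called higher for the change over days and 0 lower, with a median of 0.43. At day 3 16 were called lower in the combination, at day 6 1. At day 6 CDK1 lay at 94.4, 91.2 and 83.2 CPM in the combination, against 85.2, 98.1 and 85.3 CPM with VTP-50469 alone. At day 3 CDK1 lay at 72.8, 72.2 and 68.2 CPM in the combination, against 88.997, 124 and 121 CPM with VTP-50469 alone. CDK1, the kinase that starts mitosis, was lower in the combination in every library at day 3 (log2 effect -0.65), while the day 6 groups overlapped (change 0.65 ± 0.14, adjusted p = 0.00662, edgeR). TTK, a spindle checkpoint kinase, and TK1, the salvage enzyme for thymidine, were called lower at day 3 and higher at day 6, with changes of 0.79 ± 0.15 and 0.66 ± 0.10. VTP-50469 day 3 replicate 1 was the library with the low mitosis genes of its group, and without it 21 mitosis genes and 24 DNA replication genes were called higher and 0 lower, with medians of 0.57 and 0.48.

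Genes of the amino acid and protein stress response, which ATF4 drives when amino acids or protein folding fall short, had a median change of 0.79, and 6 of 28 were called higher and 0 lower. In the combination 23 of 28 were called lower at day 3 and 8 at day 6. ATF4 itself changed by 1.24, ASNS (asparagine synthetase) by 2.12 ± 0.54, PSAT1 of serine synthesis by 2.08 ± 0.49, and MTHFD2 of mitochondrial folate metabolism by 0.95 ± 0.18. At day 6 PSAT1 lay at 24.4, 25.5 and 33.2 CPM in the combination, against 45.1, 38.04 and 48.8 CPM with VTP-50469 alone. At day 3 PSAT1 lay at 14.8, 13.8 and 14.2 CPM in the combination, against 171, 54.3 and 63.4 CPM with VTP-50469 alone. All 3 libraries of VTP-50469 alone at day 3 lay above the combination, replicate 1 far above its partners. These genes were among the most raised in that library (median log2 difference 1.11), and without it 13 of 28 were called, with a smaller median of 0.49; the change was then 1.36 for PSAT1 and 0.66 for MTHFD2. The part of that library in the values was not tested further. Of 23 cholesterol synthesis genes, 4 were called higher, INSIG1 among them, and 0 lower, against 12 and 0 without VTP-50469 day 3 replicate 1. In the combination 18 were called lower at day 3 and 11 at day 6. INSIG1, a brake on sterol synthesis that is itself a target of the sterol-sensing factor SREBP, changed by 0.82 ± 0.16, adjusted p = 0.00393 (edgeR).

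The nucleolar programme was low in the combination on both days. Of 29 MYC and nucleolar genes, 27 were called lower in the combination at day 6 (median -1.16) and 28 at day 3 (-1.05), and the median change over days was -0.01, with 2 called higher and 2 lower (3 and 2 without VTP-50469 day 3 replicate 1). ODC1, of polyamine synthesis, and DKC1, of RNA pseudouridylation, had a weaker fall at day 6 (0.62 ± 0.10 and 0.40 ± 0.10), while MYC and POLR1A, the largest subunit of RNA polymerase I, had a deeper one (-0.63 ± 0.09 and -0.76 ± 0.17). Of 32 cytosolic ribosomal protein genes 2 were called higher (RPL27, RPS15; 2 also without that library), of 32 nuclear oxidative phosphorylation genes 3 higher (NDUFB10, COX5B, CYC1; 10 without it), and of 13 mitochondrially encoded genes 2 lower (MT-ND5, MT-ND6; 1 without that library). Over all genes tested the counts were 840 higher and 914 lower without that library, against 334 and 290 with it. None of 16 heat shock and chaperone genes was called for the change, and 13 and 14 of them were lower in the combination at day 6 and day 3; without that library 3 were called higher.

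**Figure D3:**
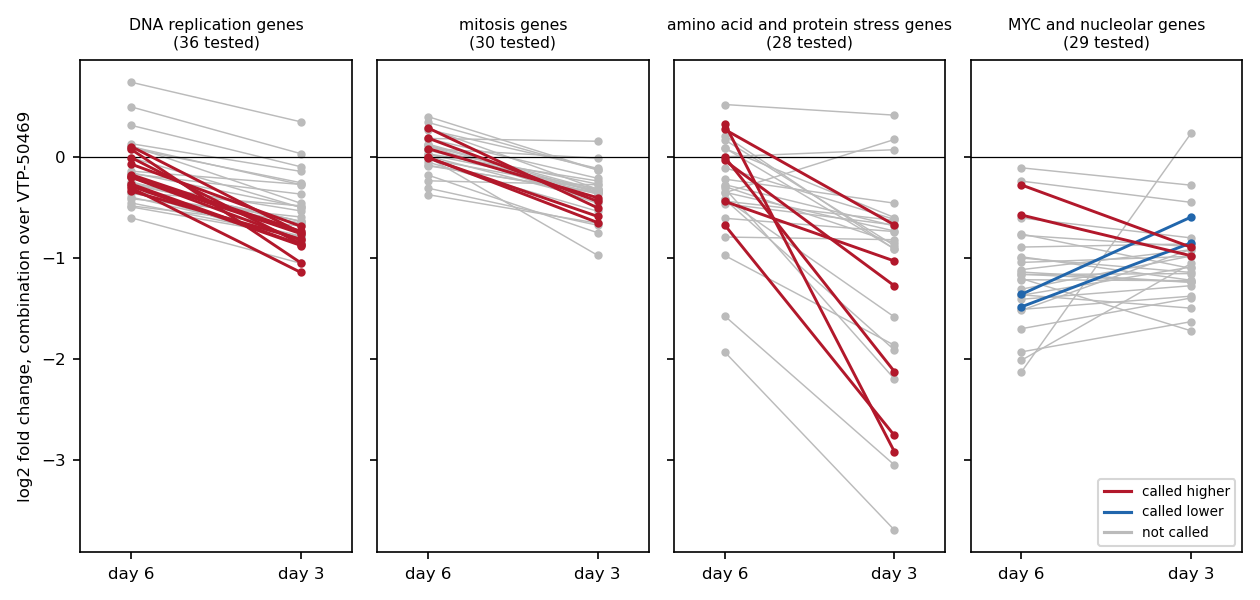
Log2 effect of adding selumetinib to VTP-50469 at day 6 (left of each panel) and day 3 (right) for each tested member of 4 gene lists, 1 line per gene. Red and blue lines are genes called higher or lower for the change over days and grey lines were not called. DNA replication, mitosis and amino acid stress genes sit nearer to 0 at day 6 than at day 3, while the MYC and nucleolar genes stay low on both days.

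Among menin and KMT2A targets outside the HOX clusters, 4 of 23 were called lower for the change over days (MEIS1, CDK6, ZEB2 and ADAM10) and 0 higher, with a median of -0.20. Without VTP-50469 day 3 replicate 1 the counts were 8 and 2. The call of ADAM10 held in 4 of the 12 fits that leave out a library. MEIS1, the homeobox partner of HOXA9 and the best known menin target in leukaemia, was already near 0 under VTP-50469 alone, against 24.6 ± 2.46 CPM in cells with DMSO at day 6 (SD, n = 3). The combination libraries of day 6 held 0 MEIS1 reads in all, against 17 with VTP-50469 alone, and those of day 3 held 146, against 50 with VTP-50469 alone. Set against a floor of 3 reads over the group, MEIS1 was at least 5.06-fold lower in the combination at day 6, while at day 3 it was 2.58-fold higher. Its change over days was called (adjusted p = 2.55e-04, edgeR).

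ZEB2, a zinc finger factor of myeloid maturation, had effects of 0.45 at day 6 and 1.27 at day 3 (change -0.81 ± 0.11, adjusted p = 3.01e-05, edgeR). At day 6 ZEB2 lay at 163, 164 and 186 CPM in the combination, against 126, 121 and 128 CPM with VTP-50469 alone. At day 3 ZEB2 lay at 144, 146 and 152 CPM in the combination, against 57.98, 60.2 and 65.6 CPM with VTP-50469 alone. The combination was higher on both days without overlap, and the smaller effect at day 6 came with a higher level under VTP-50469 alone. CDK6, a cell cycle kinase, had effects of 0.54 at day 6 and 1.13 at day 3 (change -0.59 ± 0.13). HOXA9 had effects of 0.45 at day 6 and 0.21 at day 3 and was not called (0.23 ± 0.20). PBX3, a further homeobox partner, showed 0.70 at day 6 and 0.92 at day 3, and FLT3, the growth factor receptor, 1.53 at day 6 and 1.08 at day 3; neither was called, though FLT3 had an adjusted p of 0.0223 in edgeR without VTP-50469 day 3 replicate 1. MEF2C (-0.47 ± 0.31), BCL2 (-0.10 ± 0.13) and MCL1 (0.06 ± 0.10) were not called, nor were MEN1 (-0.11 ± 0.14) and KMT2A (0.06 ± 0.24), which encode the drug target and its partner. MEF2C did pass without that library (-0.90, adjusted p = 0.00123, edgeR). Of 12 HOXA and HOXB genes tested none was called, and their median was 0.21, or 0.08 with the 2 members that had a group at 0 set at the floor; edgeR called 1 lower without that library.

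**Figure D4:**
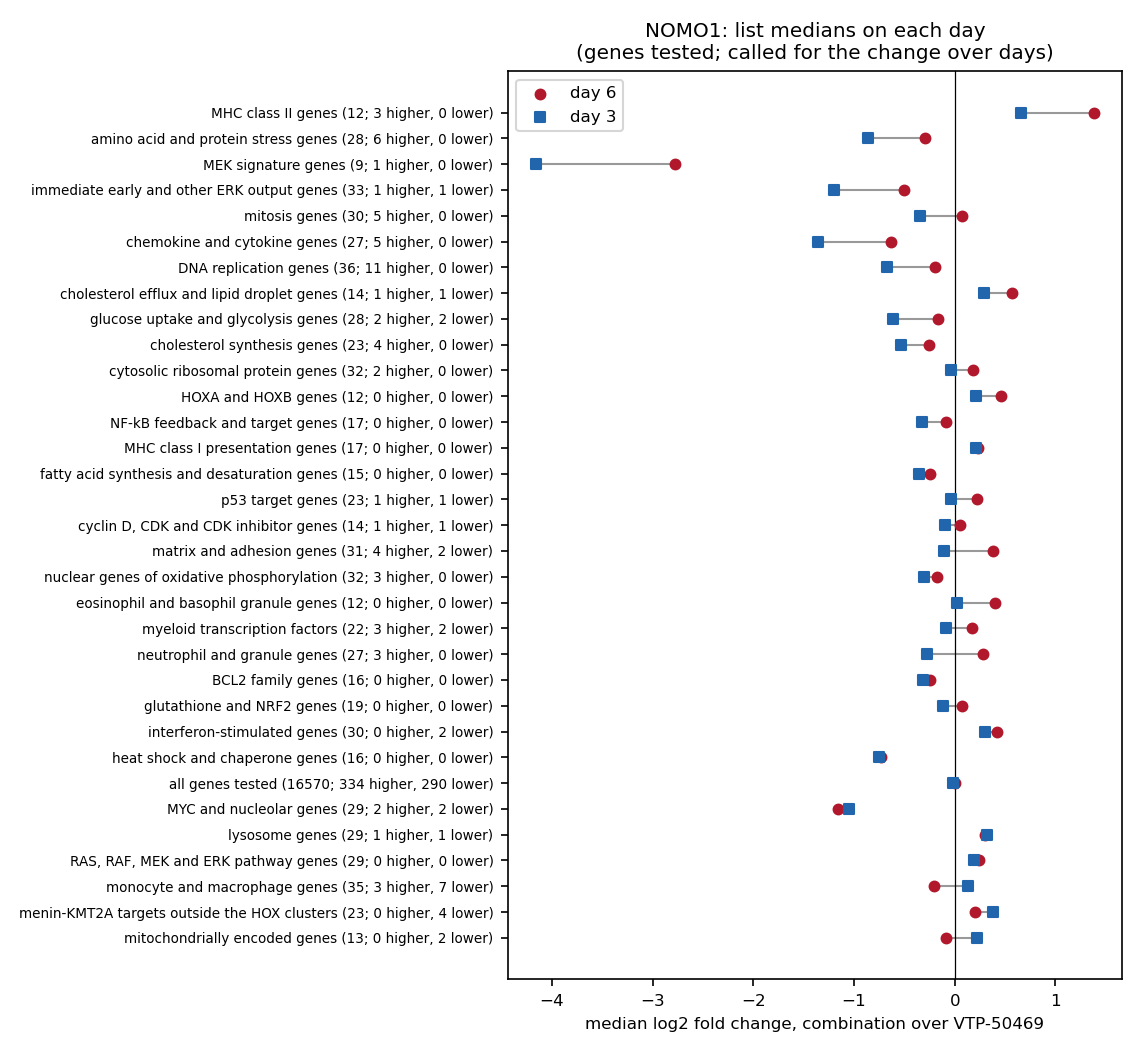
Median log2 effect of adding selumetinib to VTP-50469 over the tested members of each gene list, at day 6 (red circles) and day 3 (blue squares), ordered by the median change over days. Beside each list stand the number tested and the numbers called higher and lower for the change. MHC class II and amino acid stress genes are at the top, and mitochondrially encoded genes and menin targets at the bottom.

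Several of the largest changes were in genes for secreted and surface proteins. CCL24, the chemokine eotaxin-2 made by alternatively activated macrophages, was raised by the combination at day 6 alone. At day 6 CCL24 lay at 63.3, 87.4 and 98.3 CPM in the combination, against 9.77, 9.24 and 8.96 CPM with VTP-50469 alone. At day 3 CCL24 lay at 1.62, 1.92 and 1.59 CPM in the combination, against 1.76, 1.23 and 1.16 CPM with VTP-50469 alone. The day 6 groups were far apart and the day 3 groups overlapped, with effects of 3.15 at day 6 and 0.33 at day 3 and a change of 2.82 ± 0.40, adjusted p = 2.44e-04 (edgeR). GPNMB, a lysosomal and surface glycoprotein of macrophages, had the largest rise among genes that met the naming rule for size. At day 6 GPNMB lay at 109.6, 131 and 139.9 CPM in the combination, against 29.8, 30.5 and 26.7 CPM with VTP-50469 alone. At day 3 GPNMB lay at 0.983, 0.829 and 0.466 CPM in the combination, against 2.56, 1.65 and 0.987 CPM with VTP-50469 alone. It was higher in the combination at day 6, without overlap, and lower at day 3, where the levels were under 3 CPM. The nearest libraries of the day 3 groups lay at 0.983 and 0.987 CPM, so these groups all but met. The change was 3.29 ± 0.46, adjusted p = 3.71e-04 (edgeR), and 2.91 without VTP-50469 day 3 replicate 1, the highest of its group. CXCL16, a scavenger chemokine, turned in the same way, with effects of 0.71 at day 6 and -0.88 at day 3 (change 1.59 ± 0.28, adjusted p = 0.00243, edgeR). The CXCL16 change was 1.25 without VTP-50469 day 3 replicate 1, again the highest of its group.

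In all, 5 of 27 chemokine and cytokine genes were called higher and 0 lower, with a median of 0.43; this list is among those raised in VTP-50469 day 3 replicate 1, and without that library its median was 0.03 with 5 called higher and 3 lower. OSM is one of the 5, at 3 reads in the combination at day 3. SPP1, osteopontin, was lower in the combination on both days, at 428, 522 and 496 CPM against 2462, 2503 and 2618 CPM at day 6. At day 3 it lay at 4.06, 8.93 and 3.69 CPM in the combination, against 227, 117 and 98.996 CPM with VTP-50469 alone. The groups did not overlap, and its change of 2.33 ± 0.47 lost its call without combination day 3 replicate 1 or 3. In CPM the SPP1 gap was wider at day 6, a difference of -1904 CPM. Of 31 matrix and adhesion genes 4 were called higher and 2 lower, with a median of 0.15, against 6 and 6 with a median of -0.04 without VTP-50469 day 3 replicate 1. The summed level of 10 epithelial and stromal markers, COL1A1 and KRT8 the highest, ran from 152 to 165 CPM in the combination at day 6 and from 80.1 to 107 CPM with VTP-50469 alone. At day 3 it ran from 424 to 469 CPM in the combination and from 238 to 300 CPM with VTP-50469 alone; its part in these results was not tested.

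MHC class II genes present antigen to helper T cells. Of 12 tested, 8 were called higher in the combination on each day, with medians of 1.38 at day 6 and 0.66 at day 3, and 3 (HLA-DRA, HLA-DPA1 and HLA-DPB1) were called higher for the change and 0 lower, with a median change of 0.94. Without VTP-50469 day 3 replicate 1 the counts were 4 and 1 and the median 0.65. At day 6 HLA-DPA1 lay at 46.9, 55.97 and 58.9 CPM in the combination, against 15.9, 18.6 and 16.6 CPM with VTP-50469 alone. At day 3 HLA-DPA1 lay at 31.5, 31.1 and 36.6 CPM in the combination, against 27.8, 18.1 and 16.96 CPM with VTP-50469 alone. The combination was above VTP-50469 alone without overlap on both days, and the change was 1.00 ± 0.20, adjusted p = 0.00518 (edgeR). For HLA-DRA the change was 0.48 ± 0.13 on the log2 scale but -36.8 as a difference in CPM, and the call held in 3 of the 12 fits that leave out a library. Of 17 MHC class I presentation genes none was called (4 higher and 1 lower without VTP-50469 day 3 replicate 1), and of 30 interferon-stimulated genes 2 were called lower (1 higher and 3 lower without that library). They were STAT2, the signal transducer of type I interferon, at -0.79 ± 0.12, and SAMD9L, at -0.66 ± 0.15.

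THBD, thrombomodulin, a surface inhibitor of clotting, fell in the combination at day 6 alone. At day 6 THBD lay at 10.8, 13.7 and 11.1 CPM in the combination, against 49.1, 44.4 and 53.7 CPM with VTP-50469 alone. At day 3 THBD lay at 4.79, 6.22 and 5.51 CPM in the combination, against 6.98, 4.65 and 6.53 CPM with VTP-50469 alone. The day 3 groups overlapped at a low level. At day 6 VTP-50469 alone stood far higher than the combination (effects -2.05 at day 6 and -0.13 at day 3, change -1.92 ± 0.23, adjusted p = 9.78e-06, edgeR). The actin-binding RAI14 and the sodium-calcium exchanger SLC24A3 had that form too, with changes of -1.99 ± 0.30 and -1.65 ± 0.35. ATP9A, a phospholipid flippase, had the largest fall among genes that met the same rule. At day 6 ATP9A lay at 0.123, 0.530 and 0.501 CPM in the combination, against 25.4, 18.01 and 20.8 CPM with VTP-50469 alone. At day 3 ATP9A lay at 0.428, 0.226 and 0.272 CPM in the combination, against 2.31, 2.45 and 2.10 CPM with VTP-50469 alone. The combination held it under 1 CPM on both days, and the effect deepened with the higher level under VTP-50469 alone at day 6 (change -2.91 ± 0.55, adjusted p = 0.00215, edgeR). EMP1, an epithelial membrane protein, and FCMR, the IgM receptor, moved the other way. At day 6 FCMR lay at 17.5, 22.1 and 25.3 CPM in the combination, against 70.2, 71.8 and 70.5 CPM with VTP-50469 alone. At day 3 FCMR lay at 0.342, 0.942 and 0.543 CPM in the combination, against 15.2, 8.20 and 8.07 CPM with VTP-50469 alone. Both were lower in the combination on both days, in proportion less so at day 6, with changes of 2.80 ± 0.56 for EMP1 and 2.35 ± 0.35 for FCMR. In CPM both gaps were wider at day 6, with differences of -33.8 and -39.4 CPM.

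For 46 genes the effect was called on both days in opposite directions, 25 of them higher at day 6 and 21 lower at day 6. SASH1, a scaffold protein and candidate tumour suppressor, is among those lower at day 6. At day 6 SASH1 lay at 45.3, 54.1 and 51.97 CPM in the combination, against 99.1, 97.9 and 116 CPM with VTP-50469 alone. At day 3 SASH1 lay at 39.7, 40.1 and 40.5 CPM in the combination, against 30.2, 30.2 and 27.8 CPM with VTP-50469 alone. The 4 groups did not overlap within a day, and the change was -1.49 ± 0.12, adjusted p = 1.06e-08 (edgeR). NAT8L, which makes N-acetylaspartate, was higher in the combination at day 6 and lower at day 3. At day 6 NAT8L lay at 35.9, 40.1 and 41.7 CPM in the combination, against 24.4, 18.2 and 20.5 CPM with VTP-50469 alone. At day 3 NAT8L lay at 25.96, 29.3 and 24.5 CPM in the combination, against 44.9, 41.95 and 42.3 CPM with VTP-50469 alone. Its change was 1.59 ± 0.15, adjusted p = 2.37e-07 (edgeR). CD180, a Toll-like receptor relative, had effects of -0.60 at day 6 and 1.01 at day 3 with no overlap on either day, and ST14, the membrane protease matriptase, 0.32 at day 6 and -0.81 at day 3, with overlap at day 6. NEIL3, a DNA glycosylase of replicating cells, showed 0.23 at day 6 and -0.57 at day 3.

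The same contrast was formed in OCI-AML3, the other line of the series, which has mutant NPM1 in place of a KMT2A rearrangement and took the same drugs at the same doses. Tested in one fit of both lines (18707 genes), the change over days differed between NOMO1 and OCI-AML3 for 254 genes higher in NOMO1 (1.36%) and 361 lower (1.93%). Of the 623 genes called in NOMO1 and tested in both fits, 142 were among them. Calls for OCI-AML3 come from the fit of both lines, where 1435 of 18707 genes (7.67%) were called, and those for NOMO1 from its own fit. These calls shared 75 genes of the same direction and 31 of opposite direction. The 75 are 12.04% of those called in NOMO1 and 5.41% of the 1387 called in OCI-AML3 and tested in both fits. Both fits tested 16448 genes. The share of these called in each direction in OCI-AML3 was not computed, so the overlap is not set apart from the background. MYC was one of opposite direction. Its change was -0.63 in NOMO1 and 1.31 ± 0.13 in OCI-AML3, a difference of -1.98 ± 0.18, adjusted p = 2.33e-10 (edgeR). In OCI-AML3 MYC averaged 228 ± 1.05 CPM in the combination and 312 ± 20.5 CPM with VTP-50469 alone at day 6, and 139 ± 15.5 and 469.5 ± 89.8 CPM at day 3 (SD, n = 3 each). On the log2 scale the gap was narrower at day 6 in OCI-AML3 and wider at day 6 in NOMO1, although in CPM the NOMO1 gap was narrower too.

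IRF8 too moved oppositely, by -0.79 in NOMO1 and 1.04 ± 0.17 in OCI-AML3 (difference -1.87 ± 0.24, adjusted p = 1.37e-05, edgeR). In OCI-AML3 IRF8 averaged 604 ± 16.6 CPM in the combination and 241 ± 23.2 CPM with VTP-50469 alone at day 6. At day 3 it averaged 515 ± 40.9 and 422 ± 139 CPM (SD, n = 3 each), so the last group was widely spread. For TXNIP OCI-AML3 had 1536 ± 50.01 CPM in the combination and 919 ± 20.7 CPM with VTP-50469 alone at day 6, and 1717 ± 18.002 and 952 ± 127 CPM at day 3. The difference between the lines was -2.22 ± 0.19, adjusted p = 7.13e-11 (edgeR). SASH1 was higher in the OCI-AML3 combination on both days, with a difference of -1.74 ± 0.15, adjusted p = 2.33e-10, and THBD also differed, by -2.17 ± 0.27, adjusted p = 3.28e-06 (edgeR). MT1X differed by 2.25 ± 0.41, adjusted p = 6.32e-04 (edgeR). RRM2 had a change of 1.12 in NOMO1 and 0.53 ± 0.18 in OCI-AML3, and the difference did not pass the test (0.55 ± 0.26, adjusted p = 0.274, edgeR). STAT2 was called lower in both lines, at -0.79 in NOMO1 and -1.01 ± 0.17 in OCI-AML3. ARRDC4 averaged 0.0891 CPM with VTP-50469 alone at day 6 in OCI-AML3 and 0 in the other 3 groups, so no comparison was made.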

How the data were processed

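The deposited values are raw gene-level counts, whole numbers without scaling, in a single table that covers 42 polyadenylated RNA libraries. Per the submitters' processing notes, the tools were DESeq2 1.44.0, featureCounts, Subread 2.0.6, STAR 2.11a, MultiQC 1.14 and FastQC 0.11.9, and the build was hg38; the file header names GENCODE 30. The protocol in the labels is unstranded, so reads of a gene and of one that overlaps it on the other strand cannot be told apart. Of 45 value columns, 3 that match no labelled library were not used. The fit of both lines omits 1 gene that has a blank value. Gene positions are those of GENCODE 29 on hg38, matched by identifier, and promoters are RefSeq windows of GRCh38.p14.

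Groups, days and doses came from the labels. The 21 NOMO1 libraries were fitted with 7 group means in edgeR 4.0.16 (R 4.3.3) with filterByExpr, TMM scaling and robust quasi-likelihood dispersions, which left 16570 genes. All 21 share the estimate of the spread. Those with DMSO at day 3 had 17.6% to 18.0% mitochondrially encoded reads and TMM factors of 0.82 to 0.83. The contrast was the combination minus VTP-50469 alone at day 6 minus the same difference at day 3, beside the 2 single-day differences, with Benjamini-Hochberg adjustment at 0.05 over all genes. SE is the log2 value over the root of its F statistic. The values of OCI-AML3 and the difference from it came from 1 fit of 42 libraries with 14 group means. The 2 single-day differences and the contrast share libraries and are not independent. CPM use TMM-scaled library sizes, but unscaled ones for cell type markers. The steps were tested on simulated counts.

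Genes named are the 15 largest rises and 15 largest falls with at least 5 CPM in 1 group that kept their call in each of 12 fits leaving out a library and are not named as clones or loci. To these come, for each list, at most 4 called members taken by adjusted p, 20 followed genes, 8 genes called in opposite directions and, between the lines, 5 genes each way. Other called list members, where named, were chosen after their values were seen. Some genes that meet the rule are not reported here. The comparison, the 32 gene lists and the followed genes were chosen with earlier results of these data known, so they lend no independent support. A fold against a group at 0 reads is a bound from a floor of 3 reads over the group. Alternatives were relative log expression factors, library totals, no filter, at least 1 CPM in 3 libraries, DESeq2 1.42.0, limma 3.58.1 voom with library quality weights, the replicate number as a block, fewer groups in the fit, a fit without mitochondrially encoded genes, and fits that each drop 1 library.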

Additional observations from a re-analysis of the deposited data

Results flagged for a closer look

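Among the 46 genes whose effect of adding selumetinib was called in opposite directions at day 6 and day 3, the 8 of smallest adjusted p are given here. The contrast over the days tests that difference (edgeR, log2 change over days ± SE). The change was 1.59 ± 0.15 for NAT8L, 1.13 ± 0.13 for ST14, 0.79 ± 0.12 for NEIL3 and 0.66 ± 0.10 for TK1, all higher in the combination at day 6 and lower at day 3. It was -1.61 ± 0.18 for CD180, -0.79 ± 0.10 for IRF8 and -1.49 ± 0.12 for SASH1, all lower at day 6 and higher at day 3. MEIS1 had a fitted change of -6.76, which depends on the prior count because its combination libraries of day 6 held 0 reads; at the floor of 3 reads over the group the change is at least 13.1-fold downward.

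The change over days differed between NOMO1 and OCI-AML3 for 615 genes by a test of that difference, and the 10 chosen by the naming rule are given here (edgeR, log2 of NOMO1 minus OCI-AML3 ± SE). TXNIP had -2.22 ± 0.19, adjusted p = 7.13e-11, THBD -2.17 ± 0.27, adjusted p = 3.28e-06 and ZC3H12C -2.30 ± 0.36, adjusted p = 9.46e-05. ZC3H12C, a regulator of inflammatory messages, changed by -0.59 ± 0.16 in NOMO1 and 1.66 ± 0.29 in OCI-AML3. For 7 others at least 1 group held few or no reads, so the fitted size depends on the prior count. These were GPNMB (6.17), CCL24 (6.22), HLA-DPB1 (6.73), NDUFA4L2 (7.37), TJP3 (7.002), PRTG (-3.11) and MEIS1 (-6.46). GPNMB, for example, averaged 148 ± 17.5 CPM in NOMO1 and 0.0738 ± 0.128 CPM in OCI-AML3 in the combination at day 6 (SD, n = 3 each). TJP3 averaged 16.7 ± 1.52 CPM in NOMO1 and 0.544 ± 0.347 CPM in OCI-AML3 in the combination at day 3. Without OCI-AML3 VTP-50469 day 3 replicate 2, 620 genes were higher and 637 lower between the lines, against 254 and 361 with it.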

How the results depend on the processing

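No called value of a named gene reversed under another fit or with a library left out. As a difference of group mean CPM in place of a ratio, 12 of 95 such genes reversed: TXNIP (263), ARRDC4 (2.95), CSF1R (55.7), CYP27A1 (67.9), MYC (37.3), PSAP (648), CD14 (-188), ETV5 (-93.5), SPP1 (-1904), EMP1 (-33.8), FCMR (-39.4) and HLA-DRA (-36.8 CPM). The median of the mitochondrially encoded list could not be had with those genes removed. For the change over days (334 higher, 290 lower), limma voom with quality weights called 1225 and 1108, DESeq2 461 and 499, and a fit of the 4 compared groups alone 210 and 250. Of the 624 genes, 411 were called with the same sign in the fit of the 4 groups alone. Relative log expression factors gave 268 and 338, library totals 244 and 366. For the difference between lines (254 higher, 361 lower) the counts were 658 and 793 with voom, 403 and 551 with DESeq2, and 107 and 158 with the 8 compared groups alone. There, no filter gave 575 higher and library totals 236 lower. Leaving out 1 library gave 165 to 840 higher and 187 to 914 lower for the change over days, both highest without VTP-50469 day 3 replicate 1; the lowest came without VTP-50469 day 6 replicate 3 (higher) and combination day 6 replicate 1 (lower). It gave 1559 to 2569 higher and 2062 to 3008 lower at day 6, 2171 to 2909 and 2658 to 3399 at day 3, and 145 to 620 and 225 to 637 between the lines. The causes of these shifts were not tested, beyond fewer libraries in each such fit.

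Of the 624 genes, 263 were called in all 12 fits that left out a library. Replicate numbers did not pair the libraries, since deviations of libraries with the same number correlated at -0.063 to 0.036 over 18 pairs. With the number as a replicate block, 305 genes were higher and 279 lower. Over all called genes 322 of the 334 and 277 of the 290 kept their direction in CPM. A total of 10 called genes had a group with 3 reads or fewer, where depth limits the size of the fold.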

Other observations

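Some called genes fall outside the groups above. SLC16A10, an aromatic amino acid transporter, changed by 2.08 ± 0.38, with 3.85, 3.59 and 6.26 CPM in the combination at day 6, against 1.20, 2.09 and 1.19 CPM with VTP-50469 alone. At day 3 the effect was -0.48. KCTD1 and MYOF, a membrane repair protein, were raised by the combination at day 3 without a call at day 6, with changes of -2.02 ± 0.35 and -1.94 ± 0.30. NAIP, an inflammasome sensor of bacterial proteins, had the same form (-1.62 ± 0.31). TIFAB, an adaptor regulator of Toll-like receptor signalling, was lower in the combination at day 6 and higher at day 3 (-1.94 ± 0.39), with 1.43 ± 0.312 CPM in the combination and 0.651 ± 0.148 CPM with VTP-50469 alone at day 3 (SD, n = 3 each). SNHG12, a long noncoding RNA that hosts small nucleolar RNAs, changed by 1.84 ± 0.39. Of the 624 called genes 590 are annotated as protein coding.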
